A study of Mus musculus with 11 samples.

Results

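The genes described here encode the aminoacyl-tRNA synthetases, the enzymes that load each tRNA with its amino acid. The 36 genes were picked out by name, and the rule for picking them used no measured value. Each name matched 1 gene ID in the deposited tables, so the group is 36 of the 54146 genes quantified. By the compartment in which the enzyme works, 18 of them encode cytosolic enzymes or enzyme subunits and 16 encode mitochondrial enzymes. The other 2, *Gars* and *Kars*, serve both compartments. 

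A synthetase joins an amino acid to the tRNA that reads its codons, and the charged tRNA is then carried to the ribosome by an elongation factor. Nuclear genes encode both the enzymes of the cytosol and those that serve the small set of proteins made inside mitochondria. Several cytosolic enzymes are held together with the scaffold proteins AIMP1, AIMP2 and EEF1E1 in the multi-tRNA synthetase complex. Uncharged tRNA is a signal of amino acid shortage that raises the transcription factor ATF4, and a number of cytosolic synthetase genes are known ATF4 targets. Cleavage-stage embryos carry mRNA left from the oocyte together with mRNA from their own genome.

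Single embryos of C57BL/6 mice were collected at the 8-cell stage, at embryonic day 2.5, from matings between Prdm10Δ/+ parents. PRDM10 is a zinc finger protein that binds DNA, and the Δ allele lacks exon 5 after Cre-mediated deletion. The 6 control embryos (WT/HET) were *Prdm10*+/+ or Prdm10Δ/+ and were not told apart, and the 5 mutant embryos (KO) were Prdm10Δ/Δ. Per the study's methods, the groups were assigned by a qRT-PCR for exon 5 on the cDNA, and libraries were prepared from poly(A)-primed cDNA of 1 embryo each in 2 batches. Batch 1, with 16 cycles of pre-amplification, held control replicates 4 to 6 and mutant replicates 4 and 5. Batch 2, with 13 cycles, held control replicates 1 to 3 and mutant replicates 1 to 3. The labels do not name the litter of an embryo, so embryos of 1 batch may be siblings, and p-values measure the spread between these embryos.

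Summed expected counts, the read counts estimated by the authors, ranged from 3534735 to 8265840 per embryo. *Prdm10* reached 11.1 to 24.8 TPM in controls and 4.88 to 8.16 TPM in mutants, without overlap. Its normalised counts did overlap (124 to 380.5 in controls and 104 to 202 in mutants, log2 fold change -0.66 ± 0.26 SE, DESeq2 adjusted p = 0.207), and the effective length by which TPM is divided was 2565 to 3357 bases in controls and 4348 to 5051 bases in mutants. The 10 embryo markers summed to 1726 to 2796 TPM in controls and 2744 to 3508 TPM in mutants. *Dppa5a* supplied most of this, at 1422 to 2207 TPM in controls and 2217 to 2519 TPM in mutants. The 7 cumulus and granulosa markers summed to at most 0.47 TPM in controls and 11.1 TPM in mutants with *Foxl2* at 0, and the 4 blood markers to at most 10.9 and 1.95 TPM with *Hbb-bt* at 0. The 11.1 TPM came from 1 mutant of batch 2. In it *Inha* was at 7.83 and *Inhba* at 3.08 TPM, and both were at 0 in every other embryo. The 5 oviduct markers summed to 36.7 to 73.4 TPM in controls and 31.7 to 53.9 TPM in mutants with *Krt5* at 0. Most of this sum was *Epcam*, a gene of epithelial cells in general, at 35.9 to 54.4 TPM in controls and 22.1 to 44.9 TPM in mutants (log2 fold change -0.43 ± 0.21, adjusted p = 0.386). The 11 oocyte transcripts summed to 36.8 to 129 TPM in controls and 49.4 to 80.0 TPM in mutants with *Figla* at 0. Of the 9 oocyte transcripts that could be tested, 7 had a log2 fold change below 0, with a median of -0.46 against -0.001 for all genes, and 0 were called. The part of these markers in the values below was not tested. Each library holds RNA of a whole embryo, so fewer cells and less RNA per cell cannot be told apart.

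The synthetase mRNAs covered a wide range of levels in control embryos. Levels are given in TPM, reads per gene length as parts of a common library total, so that genes can be compared. The median of the 36 genes, each averaged over 6 controls, was 24.4 TPM, against 12.2 TPM for the 10448 genes that entered the test described further on. The 18 cytosolic genes had a median of 50.9 TPM, and 16 of them lay above 10 TPM. The 16 mitochondrial genes had a median of 10.8 TPM, and 8 lay above 10 TPM. Across all tested genes 54.2% lay above 10 TPM.

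Among the members of the multi-synthetase complex, *Qars*, which charges glutamine tRNA, was highest at 201 ± 27.9 TPM (SD, n = 6). *Rars*, for arginine, followed at 173 ± 52.0 TPM. The remaining 6 were *Kars*, for lysine in both compartments, at 109 ± 40.5, *Dars*, for aspartate, at 88.3 ± 25.3, *Eprs*, a fused enzyme for glutamate and proline, at 74.1 ± 12.5, *Mars1*, for methionine, at 57.7 ± 22.5, *Iars*, for isoleucine, at 14.4 ± 3.93, and *Lars*, for leucine, at 8.82 ± 2.66 TPM. Enzymes joined in 1 complex thus had mRNA levels that spread from *Qars* down to *Lars*, which had the lowest control mean of the 18 cytosolic genes. Over the 6 embryos of batch 2 *Aars*, at 8.43 TPM, lay below *Lars*, at 10.2 TPM.

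Outside the complex, the subunits of the phenylalanine enzyme, which work as a tetramer of *Farsa* and *Farsb*, stood at 62.5 ± 24.0 and 115 ± 29.6 TPM. *Gars*, the glycine enzyme of both compartments, reached 66.0 ± 29.2 TPM. *Yars* (tyrosine), *Nars* (asparagine) and *Hars* (histidine) followed at 59.0 ± 20.8, 58.0 ± 24.0 and 44.1 ± 17.4 TPM. The lower ones were *Sars* (serine) at 33.2 ± 12.9, *Tars* (threonine) at 25.9 ± 10.7, *Vars* (valine) at 23.0 ± 10.5, *Wars* (tryptophan) at 18.2 ± 4.15, *Aars* (alanine) at 17.8 ± 13.7 and *Cars* (cysteine) at 9.28 ± 3.19 TPM. In this order the mean ± SD ranges of neighbouring genes overlapped throughout.

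The mitochondrial set was led by *Lars2*, the mitochondrial leucine enzyme (chromosome 9, 123366927 to 123462666, GRCm38), at 266 ± 209 TPM, the highest control mean of all 36 genes. This place rested on batch 2, where *Lars2* averaged 546 TPM over 6 embryos, whereas in the 5 embryos of batch 1 it averaged 96.6 TPM and *Qars*, *Rars*, *Kars*, *Farsb* and *Dars* lay above it. Among the mitochondrial genes it was followed by *Cars2* at 52.8 ± 18.4, *Yars2* at 36.01 ± 12.8, *Wars2* at 29.4 ± 10.8, *Sars2* at 22.1 ± 11.5, *Tars2* at 19.1 ± 9.39, *Rars2* at 16.4 ± 7.49 and *Hars2* at 12.9 ± 3.84 TPM. The other 8 stayed under 10 TPM, namely *Fars2* (8.76 ± 3.79), *Ears2* (7.30 ± 2.62), *Mars2* (3.40 ± 1.06), *Iars2* (3.13 ± 2.02), *Nars2* (2.65 ± 1.56), *Aars2* (2.39 ± 2.39), *Pars2* (2.38 ± 2.34) and *Vars2* (2.28 ± 1.64). In *Aars2* and *Pars2* the SD was about as large as the mean, and *Pars2* was listed at 0 in control replicate 3.

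**Figure D1:**
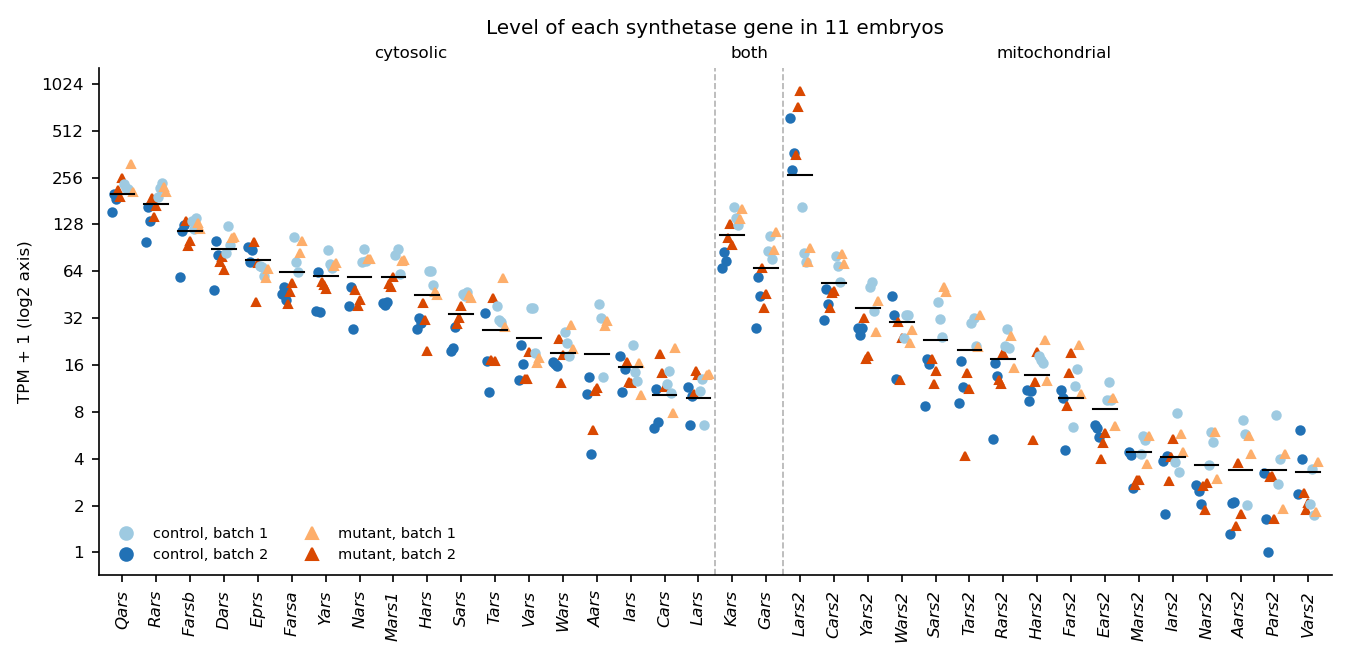
TPM + 1 on a log2 axis (y) of each synthetase gene (x, by compartment and falling control mean) in 6 control (circles) and 5 mutant (triangles) embryos, with pale points for batch 1 and dark points for batch 2 and a bar at the mean of the controls. Cytosolic genes mostly lie above the mitochondrial ones, and *Lars2* stands apart from the other mitochondrial genes and separates by batch.

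*Lars2* alone made up a large part of the mitochondrial total. Ribosomal RNA records that moved with it are given further on, and their part in its level was not tested. The summed TPM of the 16 mitochondrial genes was 487 ± 160 in controls (SD, n = 6), and *Lars2* supplied 48.8 ± 25.3% of it. The cytosolic sum was 1084 ± 244 TPM. The ratio of the cytosolic to the mitochondrial sum ranged from 0.968 to 3.90 between control embryos with *Lars2*, and from 4.35 to 6.18 without it. In mutants the corresponding ranges were 0.913 to 3.77 and 4.51 to 6.99, so the ranges of both groups overlapped.

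To compare enzymes that charge the same amino acid, the log2(TPM + 1) of the mitochondrial gene was subtracted from that of the cytosolic gene within each control embryo. Of 16 amino acids, the cytosolic gene was the higher one in 12 and the mitochondrial gene in 2, with all 6 controls on 1 side in each of these 14. Each of the 14 gave p = 0.0312 in an exact two-sided sign-flip permutation test, which is the smallest value that 6 embryos can give, and an adjusted p of 0.0357 over the 16. The mean excess of the cytosolic gene over 6 controls was largest for proline, with *Eprs* over *Pars2* by 4.75 ± 1.16 (SD, n = 6) on the log2 scale. *Eprs* stood at 91.3, 73.0, 86.5, 68.0, 67.5 and 58.5 TPM in control replicates 1 to 6, and *Pars2* at 2.26, 0.63, 0, 6.62, 1.76 and 2.99 TPM. Asparagine (*Nars* over *Nars2*, 4.01 ± 0.27) and methionine (*Mars1* over *Mars2*, 3.69 ± 0.45) had the next largest means, with smaller SDs than proline. This order differed between batches. In the controls of batch 1 asparagine (4.03) and methionine (3.93) lay above proline (3.90), and in those of batch 2 proline (5.59) was highest and glutamate (3.78) and arginine (3.61) lay above methionine (3.45).

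The excess was 3.42 ± 0.41 for arginine, 3.22 ± 0.64 for glutamate, 3.18 ± 0.78 for phenylalanine (mean of *Farsa* and *Farsb* against *Fars2*) and 2.89 ± 0.93 for valine. It was 2.40 ± 0.70 for alanine, 2.00 ± 0.63 for isoleucine and 1.65 ± 0.23 for histidine. Tyrosine and serine showed small differences of 0.69 ± 0.40 and 0.63 ± 0.41, and for serine 9 of all 11 embryos had the cytosolic gene higher. For threonine (0.44 ± 0.77, exact permutation p = 0.25) and tryptophan (-0.59 ± 0.67, exact permutation p = 0.125) the controls fell on both sides of 0, so no difference was detected.

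Leucine and cysteine ran the opposite way. Taken as cytosolic minus mitochondrial gene, the log2 difference was -4.41 ± 1.23 for leucine, with *Lars2* above *Lars*, and -2.38 ± 0.22 for cysteine, with *Cars2* above *Cars*. *Lars* stood at 10.6, 5.57, 9.19, 9.91, 12.0 and 5.63 TPM in control replicates 1 to 6, and *Lars2* at 620, 285, 370.1, 166, 83.4 and 72.3 TPM. The mitochondrial gene was higher in all 11 embryos for both amino acids. The leucine difference was -3.37 in the controls of batch 1 and -5.46 in those of batch 2, whereas the cysteine difference was -2.44 and -2.31. In the 5 mutants the leucine and cysteine differences were -4.38 ± 1.71 and -1.99 ± 0.88. A test of the mutant against control difference in these balances, chosen after the values were seen, exchanged group labels within batches over all 200 arrangements. In this exact permutation test the smallest of the 16 p-values was 0.065, for tyrosine (difference 0.50, adjusted p = 0.697), and the smallest it could give was 0.005.

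**Figure D2:**
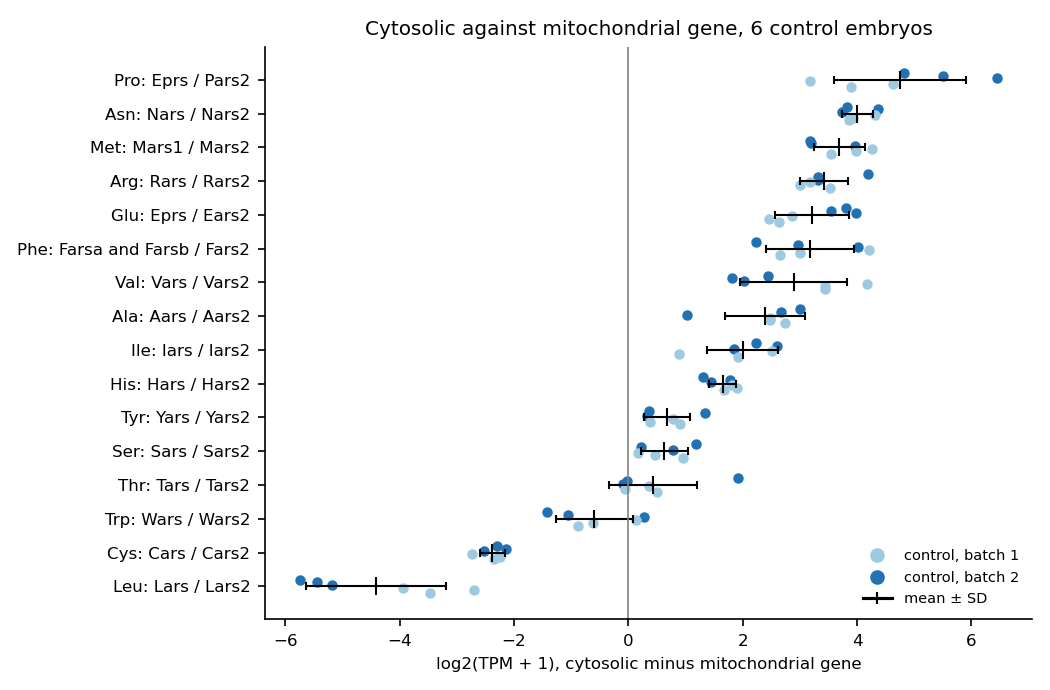
Difference in log2(TPM + 1) between the cytosolic and the mitochondrial gene of each amino acid (x) in the 6 control embryos (points, coloured by batch), with mean ± SD in black. Values run from 4.75 for proline to -4.41 for leucine, and the leucine points separate by batch.

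Mutants were then set against controls in a model that also held batch. All 36 genes passed the filter on low values, a mean normalised count above 10, with *Vars2* the lowest at 13.3. None of the 36 was called at an adjusted p under 0.05 by DESeq2, where 1.46% of all tested genes were (153 of 10448), or by edgeR, where 0.334% were (35 of 10489). At an unadjusted p under 0.05, 5 of the 36 passed in DESeq2, against 11.9% of all tested genes, and 2 in edgeR, against 9.49%. The median log2 fold change was 0.14 over the 36 genes and -0.001 over all genes. The change was above 0 for 24 of the 36, of which 13 were among the 18 cytosolic, 2 were *Gars* and *Kars*, and 9 were among the 16 mitochondrial genes, and 49.8% of all genes had a change above 0. In batch 1 alone the median of the 36 was 0.008 and in batch 2 alone 0.208, and 21 of the 36 changed in the same direction in both.

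The 5 genes at an unadjusted DESeq2 p under 0.05 were *Fars2*, *Lars*, *Kars* and *Qars* with higher and *Ears2* with lower values in mutants. By edgeR only *Kars* and *Qars* were under 0.05 (unadjusted p = 0.0417 and 0.0435). The unadjusted edgeR p was 0.0507 for *Lars*, 0.0646 for *Fars2* and 0.0896 for *Ears2*. *Lars* had 177, 269.8, 242, 205 and 215 normalised counts in mutant replicates 1 to 5, against a lowest of 100, a median of 166 and a highest of 199 in controls. In 4 of 5 mutants *Lars* lay above every control. Its log2 fold change was 0.50 ± 0.25 (SE), with an adjusted p of 0.400, and it was 0.51 in batch 1 and 0.50 in batch 2. *Qars* had 1060.3, 1010.0, 1071, 1329 and 1088 counts in the mutants, against 624, 967 and 1152 as the lowest, median and highest control. Its log2 fold change was 0.30 ± 0.15 (adjusted p = 0.379). *Kars* had 996, 1302, 914, 1139 and 1365 counts in the mutants, against 637, 975 and 1275 in controls (0.34 ± 0.16, adjusted p = 0.391). For both genes the groups overlapped. The log2 change was 0.42 for *Qars* and 0.56 for *Kars* in batch 2 and 0.16 and 0.06 in batch 1, with unadjusted DESeq2 interaction p-values of 0.365 and 0.106.

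The largest fold change above 0 was that of *Fars2*, the mitochondrial phenylalanine enzyme. It had 45.3, 42.7, 74.1, 36.9 and 33.1 normalised counts in mutant replicates 1 to 5, against 17.2, 23.9 and 42.1 as the lowest, median and highest control. In 3 of 5 mutants it lay above every control. Its log2 fold change was 0.82 ± 0.39, with a 95% interval from 0.05 to 1.58 and an adjusted p of 0.379, and it was 0.31 ± 0.72 in batch 1 and 1.22 ± 0.63 in batch 2. *Cars* came second, with 124, 77.0, 41.0, 78.9 and 141 counts in mutants against 13.3, 69.1 and 105 in controls (0.58 ± 0.41, interval -0.23 to 1.39). The groups overlapped for *Cars*, and its change was 0.29 in batch 1 and 0.82 in batch 2. *Fars2* shares 8.72% of its annotated exon bases with *Nrn1* on the opposite strand and lies head to head with *Lyrm4*, and the protocol did not keep strand.

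The largest changes below 0 were those of *Vars2*, *Ears2* and *Wars2*, all mitochondrial. *Ears2*, the glutamate enzyme, had 33.2, 45.0, 53.6, 83.0 and 53.8 counts in mutants, against 52.1, 77.0 and 125 in controls, and its log2 fold change was -0.54 ± 0.27 (adjusted p = 0.416). *Vars2* had 9.81, 11.4, 4.88, 9.22 and 17.6 counts in mutants against 4.96, 15.6 and 25.2 in controls (-0.55 ± 0.59), a level at which few reads decide the value. Its change was 0.05 in batch 1 and -1.05 in batch 2. *Wars2*, for tryptophan, had 474, 213, 355, 294 and 365 counts in mutants against 201, 468 and 738 in controls (-0.40 ± 0.30). For all of these the groups overlapped.

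The width of the intervals shows what could be seen at this depth and number of embryos. For 28 of the 36 genes the 95% interval of the mutant against control change lay within 2-fold in either direction. Among the abundant ones it was narrow, from -0.40 to 0.17 for *Eprs*, from -0.16 to 0.53 for *Rars* and from -0.17 to 0.46 for *Farsa*. For the 8 others a change of 2-fold or more lay within the interval, with *Pars2* the widest (-1.37 to 1.85). For *Lars2* it ran from -0.38 to 0.79, around a log2 fold change of 0.20 ± 0.30. The batch by group interaction was called for 0 of the 36 genes, against 0.0668% of all genes, and the lowest unadjusted p among them was 0.0559, for *Lars2* (-0.39 in batch 1 and 0.66 in batch 2). No synthetase gene had an unadjusted interaction p under 0.05 in DESeq2 or edgeR, against 450 of 10472 and 339 of 10489 genes in all.

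**Figure D3:**
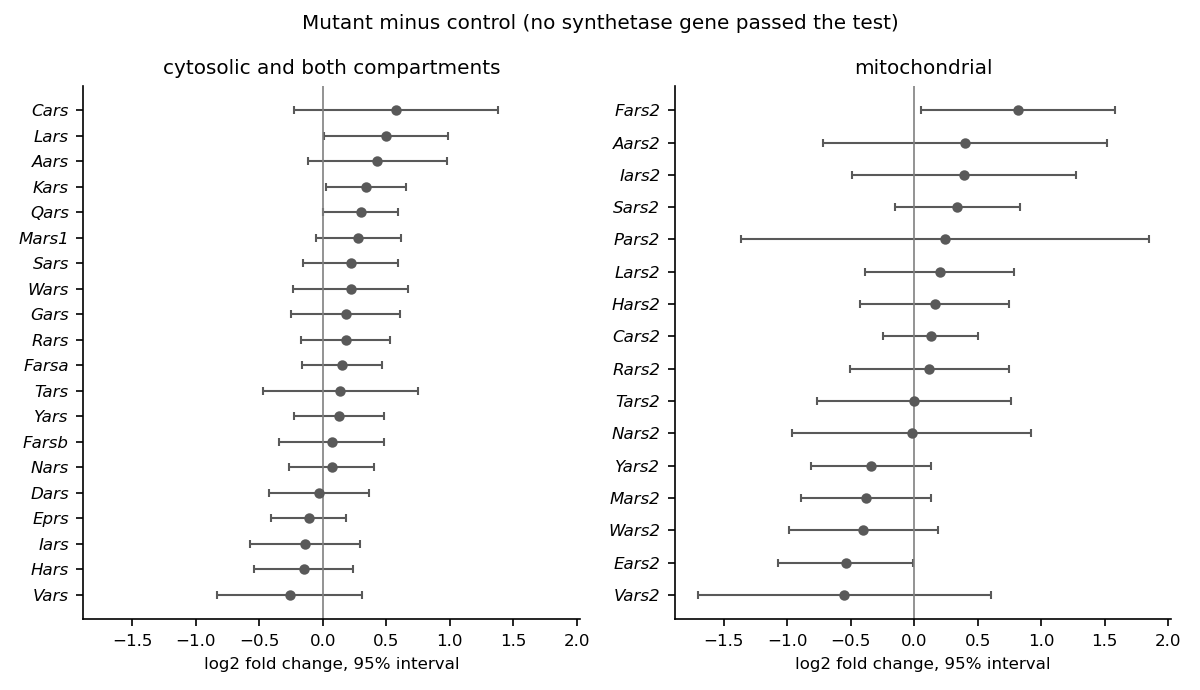
Log2 fold change of mutant against control embryos (x, points with 95% intervals) for each synthetase gene (y), fitted with batch as a term. All intervals but those of 5 genes include 0, none of the genes passed the adjusted threshold, and the mitochondrial genes of low count have the widest intervals.

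Genes that work with the synthetases were counted in the same test. Of 19 such genes, 18 passed the filter, and 0 were called in either direction by DESeq2, against 1.46% of all genes, or by edgeR, against 0.334%. None had an unadjusted p under 0.05 in either tool, against 11.9% of all genes in DESeq2 and 9.49% in edgeR. The median log2 fold change was 0.034. The scaffolds of the complex were as abundant as its enzymes, with 236 TPM for *Eef1e1*, 125 TPM for *Aimp2* and 70.4 TPM for *Aimp1* in controls. Their log2 fold changes were -0.14 ± 0.16, -0.27 ± 0.19 and 0.14 ± 0.22. *Tarsl2*, another cytosolic threonine enzyme, had a mean normalised count of 7.94, below the filter.

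Of 25 genes of the integrated stress response and of amino acid synthesis and import, 19 passed the filter and 0 were called by either tool. Of these 19, 1 had an unadjusted p under 0.05, *Sesn2*, named here after its value was seen. *Sesn2*, a leucine-binding inhibitor of mTORC1 signalling and an ATF4 target, had a log2 fold change of 0.83 ± 0.28 (adjusted p = 0.118). Without control replicate 4 it was 0.98 with an adjusted p of 0.0330, so this embryo decided the call. Of the 10 embryo markers 9 passed the filter, and 1 of the 9 was called, against 1.46% of all genes. It was *Klf5*, a transcription factor of the early embryo, with a log2 fold change of 0.84 ± 0.14 (adjusted p = 1.01e-06). At an unadjusted p under 0.05, 4 of the 9 had higher and 2 had lower values in mutants, against 11.9% of all genes in either direction. They are named after their values were seen. Beside *Klf5* the higher ones were *Pou5f1* (0.90 ± 0.31), *Dppa5a* (0.45 ± 0.16) and *Tfap2c* (0.38 ± 0.16), and the lower ones were *Nanog* (-1.05 ± 0.38) and *Fgf4* (-1.45 ± 0.47), with adjusted p-values from 0.0888 to 0.254. The *Fgf4* change was -0.11 in batch 1 and -2.71 in batch 2, with unadjusted and adjusted DESeq2 interaction p-values of 0.000357 and 0.250.

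The promoters of the genes were searched for the core of the amino acid response element bound by ATF4, TGATGCAA, on both strands, in RefSeq windows (GRCm38.p6) from 250 bases before the gene start to 50 bases after it. A window was found for 27 of the 36 genes, and not for *Cars*, *Hars*, *Hars2*, *Lars*, *Nars*, *Pars2*, *Rars*, *Vars* and *Wars*. It held the word in 4 of 11 cytosolic genes (36.4%), 0 of 2 genes for both compartments and 0 of 14 mitochondrial genes, and in 279 of 27025 genes overall (1.03%). With the looser word TGATGNAAN, which takes in every TGATGCAA followed by another base, *Gars* was added, for 5 of 27 genes (18.5%) against 4.50% of all genes. The 30 bases around 3 of the 4 matches are given in the direction of the gene, with the match in capitals, because these are synthetase genes whose promoters carry the word.
Iars (chr13:49682126-49682155, plus strand): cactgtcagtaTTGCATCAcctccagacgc
Tars (chr15:11399655-11399684, minus strand): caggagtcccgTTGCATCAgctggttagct
Yars (chr4:129189895-129189924, plus strand): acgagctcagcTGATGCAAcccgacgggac
The match begins 15 bases before the RefSeq start of *Tars*, and at base 8 of the *Iars* and base 4 of the *Yars* transcript. The mutant against control changes of these genes were -0.14 ± 0.22 (*Iars*), 0.14 ± 0.31 (*Tars*) and 0.13 ± 0.18 (*Yars*). Over all 4 genes with the word they ran from -0.14 to 0.43, with intervals that all include 0.

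More of the genes differed between the processing batches. In the same fit, 17 of the 36 genes differed between batch 2 and batch 1, where 29.7% of all tested genes did. Of the 17, 16 were lower in batch 2, against 15.0% of all genes, and 1, *Lars2*, was higher, against 14.7%. The median log2 difference of the 36 was -0.54, against 0.002 for all genes. The edgeR test called 11 of the 36, against 22.7% of all genes, with 10 of them lower in batch 2 where 10.7% of all genes were, and *Lars2* higher where 12.0% were. All of these 11 were among the 17. Other lists differed between batches as well. By DESeq2, 4 of 9 tested embryo markers (*Pou5f1*, *Tfap2c*, *Fgf4* and *Nanog*), 6 of 19 stress response and amino acid genes and 2 of 18 partner genes were lower in batch 2 and none higher. By edgeR 3 embryo markers, 5 stress response and amino acid genes and 0 partner genes were lower, again with none higher. Of the 9 tested oocyte transcripts 8 had a difference above 0, with a median of 0.62, and 1 was called, *Oosp1* (2.53 ± 0.57, adjusted p = 0.000103). The part of these in the synthetase differences was not tested. The batches were isolated and processed separately and differed in PCR cycles, so embryos, handling and amplification cannot be told apart.

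*Lars2* had 2419, 1313, 1235, 1089.7 and 1428 normalised counts in the batch 1 embryos (controls 4 to 6, then mutants 4 and 5), against 5101, 9260.3 and 17044 as the lowest, median and highest of the 6 batch 2 embryos. The batches did not overlap, and batch 2 was 6.53-fold higher (log2 difference 2.71 ± 0.30 SE, adjusted p = 5.80e-17 in DESeq2 and 8.17e-05 in edgeR). In TPM it ran from 72.3 to 166 in batch 1 and from 285 to 923 in batch 2. *Lars2* supplied 25.0 ± 6.40% of the mitochondrial sum in batch 1 (SD, n = 5) and 74.8 ± 9.03% in batch 2 (SD, n = 6). 

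Beside it, after the values were seen, 3 ribosomal RNA records of the annotation were examined. *CT010467.1* held 44081 to 68093 TPM in batch 1 and 64773 to 84956 TPM in batch 2, and *mt-Rnr1* held 806 to 2001 TPM and 2528 to 4851 TPM. The third, *mt-Rnr2*, held 10178 to 16444 TPM and 10487 to 19176 TPM and was not called (log2 difference 0.42, adjusted p = 0.0979). The batches overlapped for *CT010467.1* and *mt-Rnr2* and not for *mt-Rnr1*. *Lars2* shared none of its 31-base words with these records and 0.92% of them with any other gene. *Ovgp1*, an oviduct marker, was higher in batch 2 (log2 difference 5.87, adjusted p = 4.26e-06), at 0 to 0.81 TPM in batch 1 and 1.45 to 30.1 TPM in batch 2. *Epcam*, the other oviduct marker that could be tested, was not called (log2 difference 0.39, adjusted p = 0.143). The part of these in the *Lars2* difference, in its level and in the leucine values was not tested.

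The alanine enzymes were the lowest in batch 2 relative to batch 1. *Aars* had 786, 534, 329.8, 605 and 705 counts in batch 1 in the same order, and 98.8, 197 and 295 as the lowest, median and highest of batch 2 (log2 difference -1.60 ± 0.28, adjusted p = 5.16e-07). Its mitochondrial counterpart *Aars2* had 78.7, 67.3, 15.7, 63.5 and 47.6 counts against 4.97, 15.0 and 46.5 (-1.67 ± 0.57, adjusted p = 0.0162, edgeR 0.0554). For *Aars* the batches did not overlap, and for *Aars2* control replicate 6 of batch 1 lay among the batch 2 embryos. *Aars* shares 14.3% of its exon bases with *Exosc6* on the same strand, so reads there may belong to either gene.

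Other mitochondrial genes moved the same way. *Sars2* had 276, 236, 193, 372 and 361 counts in batch 1 and 67.9, 132 and 145 in batch 2 (-1.26 ± 0.25, adjusted p = 5.93e-06). *Tars2* had 175, 192, 141, 151 and 187 counts in batch 1 and 14.3, 75.9 and 98.3 in batch 2 (-1.36 ± 0.39, adjusted p = 0.00292). *Cars2* had 414, 431, 327, 448 and 372 counts in batch 1 and 191, 286 and 324 in batch 2 (-0.58 ± 0.19, adjusted p = 0.0102). For these the batches did not overlap. *Ears2*, with 85.3, 125, 101, 83.0 and 53.8 counts against 33.2, 52.9 and 68.8, overlapped between batches (-0.70 ± 0.27, adjusted p = 0.0351, edgeR 0.0980).

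Among the cytosolic genes outside the complex, *Nars* had 729, 980.1, 889, 823 and 851 counts in batch 1 against 354, 508 and 622 in batch 2 (-0.75 ± 0.17, adjusted p = 0.000198). *Farsa* had 696, 533, 505, 609 and 741 counts against 330.5, 387 and 443 (-0.70 ± 0.16, adjusted p = 0.000176), while its partner subunit *Farsb* was not called (-0.05 ± 0.21). *Gars* had 778, 1065, 826, 844 and 1138 counts against 305, 522 and 753 (-0.83 ± 0.22, adjusted p = 0.00138). For these 3 called genes the batches did not overlap. *Hars* had 482, 522, 462, 372 and 372 counts against 180.4, 288 and 369.8 (-0.63 ± 0.20, adjusted p = 0.00964), with both mutants of batch 1 just above the highest of batch 2. *Hars* overlaps *Hars2*, its mitochondrial counterpart on the opposite strand, by 195 exon bases.

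*Sars*, *Vars* and *Yars* had differences that depended on the test. *Sars* had 368, 378, 472, 409 and 377 counts in batch 1 against 200.5, 295 and 383 in batch 2 (-0.53 ± 0.19, adjusted p = 0.0246, edgeR 0.0641). *Vars* had 268, 277, 90.9, 126 and 169.7 counts against 100.2, 110.2 and 120.1 (-0.72 ± 0.29, adjusted p = 0.0457, edgeR 0.0899). *Yars* had 849.7, 829.3, 768, 740.5 and 856 counts against 438, 629.7 and 756 (-0.44 ± 0.18, adjusted p = 0.0460, edgeR 0.0861). In each of them the batches overlapped, for *Vars* through control replicate 6 of batch 1 alone.

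Of the 8 members of the complex, 3 were lower in batch 2 by DESeq2, where 15.0% of all genes were, and 2 by edgeR, where 10.7% were. *Mars1* had 572, 709.5, 508, 574 and 615 counts in batch 1 against 223, 302 and 405 in batch 2, without overlap (-1.01 ± 0.17, adjusted p = 2.43e-07). *Kars* had 1275, 1178, 1153, 1139 and 1365 counts against 637, 856 and 1302 (-0.50 ± 0.16, adjusted p = 0.0106). *Qars* had 1044, 1152, 1064, 1329 and 1088 counts against 624, 950.2 and 1071 (-0.36 ± 0.15, adjusted p = 0.0476, edgeR 0.101). The *Qars* call was lost in 14 of 17 alternative settings. *Kars* and *Qars* overlapped between batches, and both had their lowest values in the batch 2 controls. *Rars* (-0.35 ± 0.18), *Dars* (-0.24 ± 0.20), *Eprs* (0.08 ± 0.15), *Lars* (0.13 ± 0.25) and *Iars* (0.16 ± 0.22) were not called. The scaffolds *Aimp1*, *Aimp2* and *Eef1e1* were not called either, with log2 differences of 0.29, 0.34 and 0.33.

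In all, 10 of the 36 genes (27.8%) had batches that did not overlap in normalised counts, against 13.0% of all tested genes. Among the mutants and controls no synthetase gene was without overlap, against 0.919% of all tested genes. The 19 genes not called between batches had differences from -1.26 ± 0.82 (*Pars2*) to 0.16 ± 0.22 (*Iars*).

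**Figure D4:**
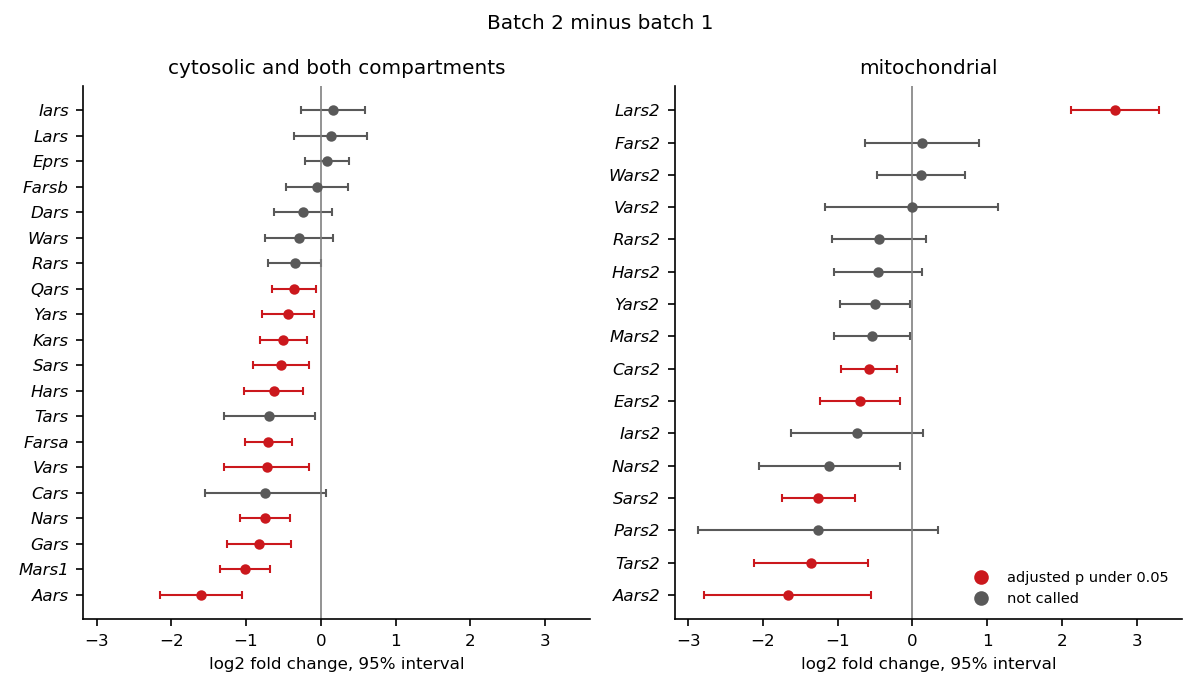
Log2 difference between batch 2 and batch 1 (x, points with 95% intervals) for each synthetase gene (y), red where the DESeq2 adjusted p was under 0.05. The 16 genes called lower lie left of 0, down to -1.67 for *Aars2*, and *Lars2* lies at 2.71.

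**Figure D5:**
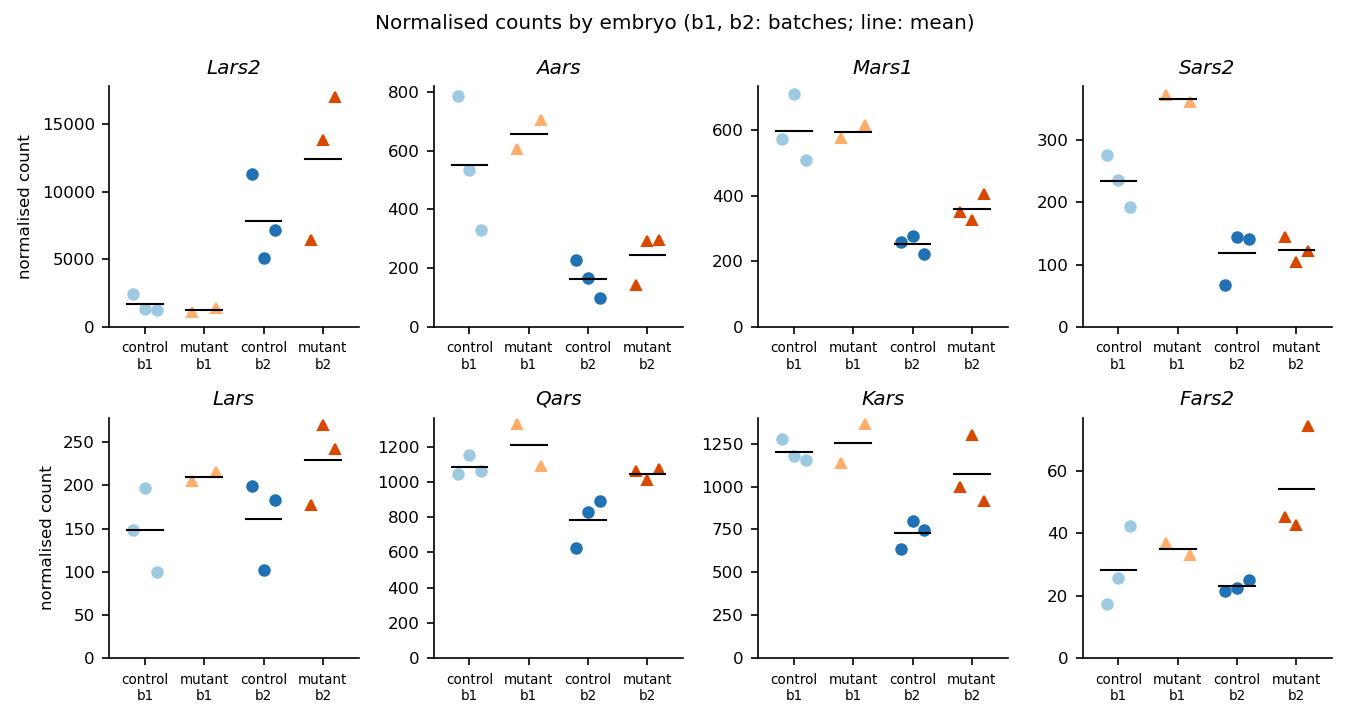
Normalised counts (y, from 0) of 8 synthetase genes by group and batch (x), with 1 point an embryo and a bar at the mean. The upper row holds genes that separate by batch. The lower row holds the genes with higher values in mutants at an unadjusted DESeq2 p under 0.05, in which the groups overlap. *Ears2*, with lower values in mutants at that threshold, is not shown.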

How the data were processed

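Single-embryo RNA-seq was analysed from the authors' deposited tables, 1 per embryo. Per the study's methods and the submitters' processing notes, single-end reads were mapped with STAR (version 2.6.0c) to GRCm38.p6 and quantified with RSEM. Each deposited table gives the expected count, in which the authors' tool divides shared reads, the TPM and the effective length of 54146 genes. A table of the authors' own DESeq2 comparison (mean count, log2 fold change, p-value) was not used. Symbols and coordinates came from a GENCODE annotation of the same build.

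Expected counts were rounded and fitted with DESeq2 (version 1.42.0; R 4.3.3), the tool the study used, with batch and group as terms and unshrunken changes, and called at a Benjamini-Hochberg adjusted p under 0.05 over genes with a mean normalised count above 10. The edgeR quasi-likelihood test (4.0.16) is given beside it. Normalised counts are counts divided by DESeq2 size factors. Intervals are the estimate ± 1.96 SE. Cytosolic and mitochondrial genes were compared on log2(TPM + 1), a scale that understates differences of low genes. The alternatives were edgeR, limma (3.58.1) on log2(TPM + 1), TMM factors, no filter, a mean above 100, an effective-length offset, a model with no batch, the batches taken singly, leaving out 1 embryo at a time, and, for pairs of genes, a pseudocount of 0.1, other embryos and full gene length.

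Values by embryo, or the lowest, median and highest for sets of 6 embryos, are given for synthetase genes called in a test and for the 3 largest changes in each direction, and by embryo for the extreme pairs. By the rule, the genes named beyond the 36 were *Prdm10*, scaffolds, *Tarsl2* and listed genes called between mutants and controls. Other markers, ribosomal RNA records, overlapping neighbours and genes with an unadjusted p under 0.05 were named after their values were seen. The sequence of 1 promoter match and the values of 1 listed gene are not reported here. The rule for the 36 genes uses no measured value, but the family and the lists were chosen with earlier results of these data known. No molecular identifiers were used, so counts may include PCR copies of 1 molecule. The SEs and p-values of the count tests reflect the spread between these embryos. Of 55 pairs of embryos, none shared more than 0.663% equal counts among genes above 20 counts, so each embryo counted as 1 sample.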

Additional observations from a re-analysis of the deposited data

Results flagged for a closer look

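Each gene's normalised counts were screened for an embryo far from the rest of its group, in 6 controls and in 5 mutants, 72 sets of values in all. A gap to the nearest embryo large against the range of the group (Dixon's ratio at the 95% level) was found in 6, and chance gives about 1 in 20 such sets. The screen pooled the batches within each group, and this rate takes no account of differences between batches. *Rars2* was low in control replicate 1, at 38.9 against 119 to 164 in the other controls, and *Fars2* was high in control replicate 6, at 42.1 against 17.2 to 25.6. Among mutants, replicate 4 was high for *Nars2*, at 34.8 against 9.91 to 16.6, and for *Qars*, at 1329 against 1010.0 to 1088. *Mars2* was high in mutant replicate 5, at 225 against 94.3 to 128, and *Farsb* in mutant replicate 1, at 1216 against 894 to 984. Of these only *Fars2* and *Qars* belong to the genes with an unadjusted DESeq2 p under 0.05 between mutants and controls, with log2 changes of 0.82 and 0.30.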

How the results depend on the processing

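The count of 0 synthetase genes called between mutants and controls held in all alternatives, and the median change of the 36 genes stayed above 0, from 0.008 (batch 1 alone) to 0.208 (batch 2 alone). That of the mitochondrial genes was below 0 in batch 1 alone (-0.042), without a batch term (-0.051) and without mutant replicate 3 (-0.049). The number of all genes called, 153, was 35 with edgeR, 22 with limma, 55 without the batch term, 81 in batch 1, 51 in batch 2 and 91 to 280 with 1 embryo left out (280 without control replicate 2, 91 without mutant replicate 2, 98 without mutant replicate 5). The share of lower calls, 60.8%, was 77.1% with edgeR, 95.5% with limma and 43.2% without control replicate 2. Partner genes stayed at 0 called, and stress response genes at 0 to 1 with 1 embryo left out. Between batches, 17 genes were called, 11 with edgeR and 11 to 16 with 1 embryo left out (11 without control replicate 5), and the same 11 genes were called under all 17 alternatives. Of the rest, *Qars* lost its call in 14 alternatives, *Vars* in 13, *Yars* in 11, *Ears2* in 10, *Sars* in 6 and *Aars2* in 4. Limma on log2(TPM + 1) moved the median of all genes to -0.21 and the share of lower calls from 50.5% to 76.3%, and the median of the 36 relative to all genes was -0.49 there and -0.54 in the main test. The interaction was called for 0 of the 36 in DESeq2, with edgeR, with a mean above 100, with the effective-length offset and with 1 embryo left out, the settings in which it was fitted. For pairs of genes, 16 of 16 amino acids passed over all 11 embryos and 0 in the 5 mutants or with a control left out, designs whose smallest exact permutation p, 0.0625, cannot pass, and the direction of all 16 was unchanged in each of these. No paired analysis was possible because the labels give embryo identifiers and no replicate numbers shared between groups. Genes with few reads had wide intervals, such as *Pars2* with a mean normalised count of 19.1 and *Vars2* with 13.3.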

Other observations

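The batch differences of synthetase genes of the same amino acid were set side by side and were not tested against each other. For alanine both the cytosolic and the mitochondrial gene were lower in batch 2 (-1.60 for *Aars* and -1.67 for *Aars2*), whereas for leucine *Lars* was at 0.13 and *Lars2* at 2.71. For threonine *Tars* was at -0.69 ± 0.31 (SE, DESeq2 adjusted p = 0.0726) and *Tars2* at -1.36 ± 0.39. By catalytic class, 7 of 18 class I genes and 10 of 17 class II genes were called between batches by DESeq2, against 29.7% of all genes, and 3 and 8 by edgeR, against 22.7%, with *Eprs*, which holds both kinds of catalytic domain, not called. The difference between the classes was not tested. Some synthetase genes share exon sequence with a neighbour or a pseudogene, so that their counts are less certain. *Iars2* shares 22.9% of its exon bases with *Rab3gap2* on the opposite strand, *Farsb* shares 9.47% with *Sgpp2*, *Vars2* shares 8.52% with the antisense gene *Gm20483*, and 14.7% of the 31-base words of *Iars* are also found in other genes, mostly in the pseudogene *Gm4849*.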
